A study of Mus musculus with 7 samples.

Results

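The 10 genes described here carry out or control the presentation of peptides on MHC class I molecules. They were chosen by symbol from the table of counts per gene, where each of the 10 was found among 26583 entries with a gene symbol, and all 10 were among the 13453 genes with enough counts to be tested. They encode the heavy chains H2-K1, H2-D1 and H2-T23, the light chain B2m, the peptide transporter Tap1 and Tap2, the loading factor Tapbp, the proteasome subunits Psmb8 and Psmb9, and the transcriptional activator Nlrc5. The libraries came from lymphatic endothelial cells, which line lymphatic vessels, taken from the mouse ear pinna. The labels give 3 libraries of naive skin and 4 of BPC melanoma.

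Naive replicates 1 and 3 carried BrafCA/+ and pten l/l and were Cre-. The label of naive replicate 2 gives both that genotype and Braf+/+;pten l/l Cre+. All 4 tumour libraries were BrafCA/+, pten l/l and Cre+, so that every library shared pten l/l. Naive replicate 1 pooled both sexes, naive replicate 2 was female and naive replicate 3 male, while tumour replicates 1 and 2 were male and 3 and 4 female. The promoter that drives Cre, the mouse strain, the age, the sort and the number of animals per library are not stated in the labels. Whether libraries of a group hold separate animals is not stated either, and p-values therefore describe library-to-library spread, which may be partly technical.

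Nearly all nucleated cells display class I molecules, which are made of a polymorphic heavy chain bound to beta-2-microglobulin and a peptide. The proteasome cuts cytosolic proteins, the Tap1 and Tap2 transporter moves the peptides into the endoplasmic reticulum, and tapasin helps to load them. CD8 T cells and natural killer cells read the result at the surface. Interferon gamma is known to raise most of these genes, in part through Nlrc5, which acts at class I promoters. Lymphatic endothelial cells are known from mouse work to present antigens on class I molecules to CD8 T cells.

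Total counts were 52940832 to 63032175 per library. A single gene, Ccdc115, held from 6.68% of them in tumour replicate 4 to 16.5% in tumour replicate 1. The lymphatic markers Prox1, Lyve1, Pdpn and Pecam1 were present in all 7 libraries, and none of the 14 lymphatic markers was at 0 in any library. The sequencing lane, read from a tag in the sample descriptions, was 7 for naive replicates 1 and 2, 8 for naive replicate 3 and tumour replicate 3, and 6 for the other tumour replicates. Lane and group were therefore nearly aligned, and the lane 8 pair is the only place where both groups share a lane.

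Upstream sequences are shown because class I genes are known to share control letters. RefSeq windows (GRCm38.p6) matched 8 of the 10 members, all but Tap2 and Nlrc5. The 250 bases before the RefSeq start were searched on both strands for GGGATTCCC (an NF-kB motif), for AANNGAAA (the interferon regulatory factor core), for TGACG (bound by the CREB and ATF family) and for CCAAT (bound by NF-Y). These occurred in 0.301%, 21.3%, 17.8% and 33.8% of the 32851 windows of that length in the table. Matches are in capitals, each sequence reads 5′ to 3′ on the strand of its gene, and none of the matches overlap. The windows are H2-K1 on the minus strand at chr17:34000348-34000597, H2-D1 on the plus strand at chr17:35262844-35263093, B2m on the plus strand at chr2:122147437-122147686 and Tap1 on the plus strand at chr17:34187306-34187555.
H2-K1: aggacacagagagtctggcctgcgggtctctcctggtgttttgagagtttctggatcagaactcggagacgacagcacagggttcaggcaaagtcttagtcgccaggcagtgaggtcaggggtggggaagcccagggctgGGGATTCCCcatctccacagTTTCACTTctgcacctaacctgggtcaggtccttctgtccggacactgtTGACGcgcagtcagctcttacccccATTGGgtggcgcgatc
H2-D1: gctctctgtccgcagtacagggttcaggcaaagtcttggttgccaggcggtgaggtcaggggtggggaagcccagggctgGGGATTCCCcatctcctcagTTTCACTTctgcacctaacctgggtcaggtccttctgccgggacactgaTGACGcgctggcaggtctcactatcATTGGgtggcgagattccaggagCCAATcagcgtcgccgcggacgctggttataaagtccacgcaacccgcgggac
B2m: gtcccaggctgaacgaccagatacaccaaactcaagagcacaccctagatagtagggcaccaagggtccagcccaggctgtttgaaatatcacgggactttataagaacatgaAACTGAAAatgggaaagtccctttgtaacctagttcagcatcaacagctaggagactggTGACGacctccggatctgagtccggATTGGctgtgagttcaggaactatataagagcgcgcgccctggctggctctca
Tap1: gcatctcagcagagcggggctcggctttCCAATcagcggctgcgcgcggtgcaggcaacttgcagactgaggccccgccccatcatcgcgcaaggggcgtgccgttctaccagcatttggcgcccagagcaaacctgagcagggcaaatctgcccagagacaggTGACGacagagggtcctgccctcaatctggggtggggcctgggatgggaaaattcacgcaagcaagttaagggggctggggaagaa

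The H2-K1 and H2-D1 windows each held the NF-kB letters, the interferon regulatory factor core, TGACG and ATTGG (the reverse of CCAAT), in that order, and H2-D1 held a further CCAAT after them. The NF-kB match began 110 bases before the start in H2-K1 and 170 in H2-D1. Set on their NF-kB matches without gaps, the windows were identical at 166 of 190 bases (87.4%). The further CCAAT of H2-D1 lies past these 190 bases, so the matching stretch of H2-K1 was not searched. The B2m window held AACTGAAA, TGACG and ATTGG, and no NF-kB match. In the Tap1 window only TGACG and CCAAT were found. The start of Psmb9 lies on the opposite strand, and 225 bases of its own window are the same stretch read the other way. RefSeq and GENCODE starts differ for some members: the RefSeq start lies 364 bases into the GENCODE gene for H2-D1, 3579 for Tapbp, 474 for Psmb8, 434 for Psmb9 and 154 for H2-T23, so that the first 4 of these windows lie within the GENCODE gene and that of H2-T23 in part. H2-T23 matched AANNGAAA and CCAAT, Tapbp matched CCAAT, and in the Psmb8 window none of the 4 motifs was found. A match describes letters and is not evidence of binding.

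In the annotation (GENCODE M21, GRCm38), 8 of the members lie on chromosome 17, and Psmb9, Tap1, Psmb8 and Tap2 stand side by side within 34.3 kb, from 34181987 to 34216321. H2-K1 lies at 33996017 to 34000347, H2-D1 at 35262730 to 35267499, H2-T23 at 36029773 to 36032855 and Tapbp at 33915899 to 33929292. B2m is on chromosome 2 (122147686 to 122153083) and Nlrc5 on chromosome 8 (94434356 to 94527272). The counts are of whole genes, over 4 exons for B2m and 53 for Nlrc5.

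Transcript levels of class I presentation did not pass the test for any member between tumour and naive libraries. Of the 10 members, 0 rose and 0 fell by edgeR (quasi-likelihood test, p adjusted by Benjamini-Hochberg over all genes, threshold 0.05), against 1.7% of all tested genes called, 0.899% higher and 0.803% lower, so that 0 of 10 is near the background. At an unadjusted p under 0.05 there was 1 member, Tap1, against 16.9% of all tested genes. DESeq2 called 0 of the 10 members against 9.28% of all genes, and limma-voom 0 against 2%. The range of CPM (library-scaled counts, the unit of every level here) overlapped between the groups for all 10 members, while 18% of all tested genes had groups that did not overlap (9.57% higher in tumour, 8.46% lower). The members had 6 estimates above 0 and a median log2 fold change of 0.11, beside 0.04 for all tested genes. That median was -0.065 without tumour replicate 1 and 0.33 without naive replicate 2. The 95% intervals were narrow for the heavy chains and wide for Nlrc5.

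**Figure D1:**
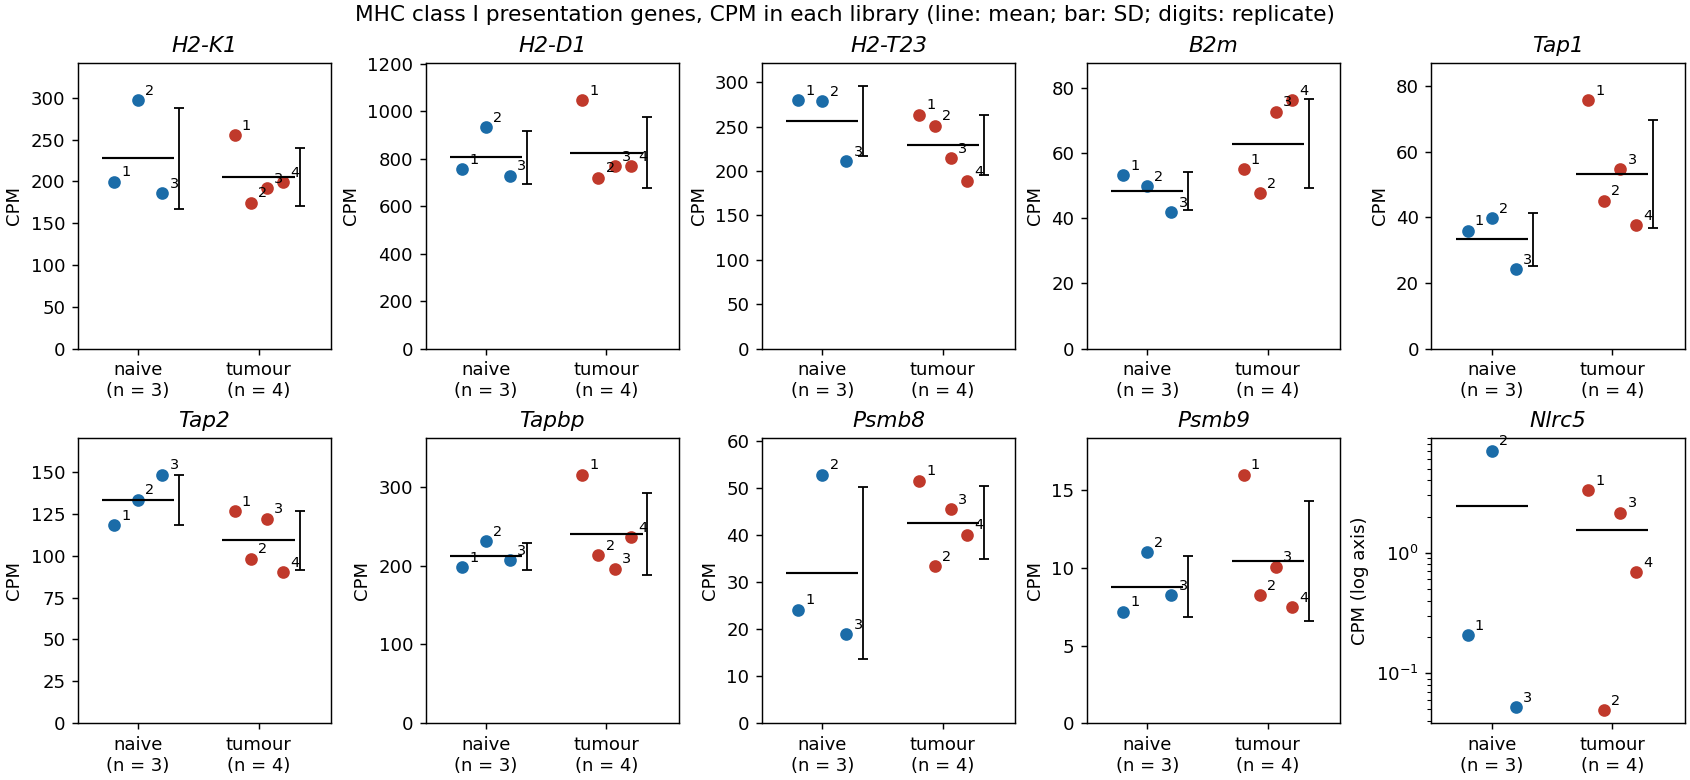
CPM of each member in the 3 naive (blue) and 4 tumour (red) libraries, with the replicate number beside each point, the mean as a line and the SD as a bar; the axis of Nlrc5 is logarithmic and has no SD. In every panel the points of the groups overlap, and naive replicate 2 and tumour replicate 1 lie at the top of their group in many panels.

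Per kilobase of transcript, the heavy chain genes were the most abundant members. H2-K1, which encodes the classical class I molecule K, was at 200 CPM, 297 CPM and 186 CPM in naive replicates 1 to 3 and at 255 CPM, 175 CPM, 192 CPM and 199 CPM in tumour replicates 1 to 4. Naive replicate 2 held the highest value of all and tumour replicate 1 the next, and the other 5 libraries lay close together. Naive libraries averaged 228 ± 60.5 CPM (SD, n = 3), tumour libraries 205 ± 34.9 CPM (SD, n = 4), and the estimated log2 change was -0.15 (SE 0.20, 95% interval -0.61 to 0.31, edgeR adjusted p = 0.796). Without naive replicate 2 the estimate was 0.09.

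H2-D1, which encodes the other classical molecule D, had 756 CPM, 934 CPM and 729 CPM in the naive libraries and 1047 CPM, 720 CPM, 769 CPM and 770 CPM in the tumour libraries. Tumour replicate 1 stood above the other tumour libraries, and naive replicate 2 was again the highest naive library. The means were 806 ± 111 CPM (SD, n = 3) and 827 ± 149 CPM (SD, n = 4), a log2 difference of 0.04 (SE 0.16, 95% interval -0.34 to 0.41, edgeR adjusted p = 0.947). On the linear scale the interval ran from 0.791 to 1.33 times the naive level. Its estimate was -0.10 without tumour replicate 1.

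H2-T23 encodes Qa-1, a nonclassical molecule that presents leader peptides of other class I chains to CD94/NKG2 receptors. Its values were 280 CPM, 279 CPM and 211 CPM in the naive libraries and 263 CPM, 251 CPM, 214 CPM and 189 CPM in the tumour libraries. The order differed from that of the classical genes, with naive replicate 3 and tumour replicates 3 and 4 low. From 257 ± 39.3 CPM (SD, n = 3) in naive and 229 ± 34.3 CPM (SD, n = 4) in tumour libraries the log2 change was -0.16 (SE 0.16, 95% interval -0.54 to 0.21, edgeR adjusted p = 0.712).

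B2m, which encodes the light chain that all these heavy chains need, was at 53.2 CPM, 49.8 CPM and 41.7 CPM in the naive libraries and at 54.9 CPM, 47.6 CPM, 72.6 CPM and 76.1 CPM in the tumour libraries. Tumour replicates 3 and 4 were well above every naive library, tumour replicate 1 just above them and tumour replicate 2 within their range. Means of 48.2 ± 5.88 CPM (SD, n = 3) and 62.8 ± 13.7 CPM (SD, n = 4) gave a log2 difference of 0.38 (SE 0.22, 95% interval -0.11 to 0.88, edgeR adjusted p = 0.441). Tumour replicates 3 and 4 were the female tumour libraries, 1 of lane 8 and 1 of lane 6.

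Reads of near-identical class I genes could be split by the counting, which the sources used here do not describe. Of the 50-base windows of the longest coding transcript, 8.79% occurred in a transcript of another gene for H2-K1, 14.3% for H2-D1 and 28.8% for H2-T23. At 100 bases these shares were 0%, 4.64% and 7.28%. For B2m, Psmb8, Psmb9 and Nlrc5 they were 0% at both sizes. The windows come from the C57BL/6J reference, and how far alleles of another strain would change the counts of these polymorphic genes was not tested.

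The estimates for the genes of the Tap transporter had opposite signs, and neither passed the test. Tap1 had 36.0 CPM, 39.7 CPM and 24.2 CPM in the naive libraries and 75.7 CPM, 45.1 CPM, 54.7 CPM and 37.6 CPM in the tumour libraries. In tumour replicates 1, 2 and 3 it was above every naive library, and tumour replicate 4 lay just below naive replicate 2. Its log2 fold change, between means of 33.3 ± 8.12 CPM (SD, n = 3) and 53.3 ± 16.5 CPM (SD, n = 4), was 0.68 (SE 0.29, 95% interval 0.01 to 1.34), with an unadjusted p of 0.0463 and an adjusted p of 0.284 by edgeR. Without tumour replicate 1 the estimate was 0.46, and within lane 8 it was 1.18.

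Tap2 had 118 CPM, 133 CPM and 148 CPM in the naive libraries and 126 CPM, 98.3 CPM, 122 CPM and 90.3 CPM in the tumour libraries. Tumour replicates 2 and 4 were below every naive library, and the other tumour libraries were within the naive range. Means were 133 ± 15.1 CPM (SD, n = 3) and 109 ± 17.7 CPM (SD, n = 4), with a log2 change of -0.29 (SE 0.17, 95% interval -0.67 to 0.09, edgeR adjusted p = 0.456), and it was -0.28 within lane 8.

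The ratio of Tap1 to Tap2 within a library does not depend on how the library is scaled. Per kilobase of transcript it was 0.355, 0.347 and 0.190 in naive replicates 1 to 3 and 0.698, 0.534, 0.522 and 0.485 in tumour replicates 1 to 4. All 4 tumour libraries were above all 3 naive libraries, which was seen for none of the other 7 ratios examined. The geometric mean of the ratio was 1.94 times as high in tumour, a log2 difference of 0.95. The exact two-sided permutation test gave p = 0.0571, the smallest p that 3 against 4 libraries allow, so that it could not reach 0.05; adjusted over the 8 ratios it was 0.457. In the lane 8 pair the ratio was 0.190 in the naive and 0.522 in the tumour library. Leaving out 1 library at a time gave log2 differences of 0.66 to 1.11. Tap1 shares 212 exon bases with Psmb9 on the other strand, and 533 exon bases of Tap2 lie opposite Gm15821, which had 15 counts in all; the libraries do not mark the strand.

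**Figure D2:**
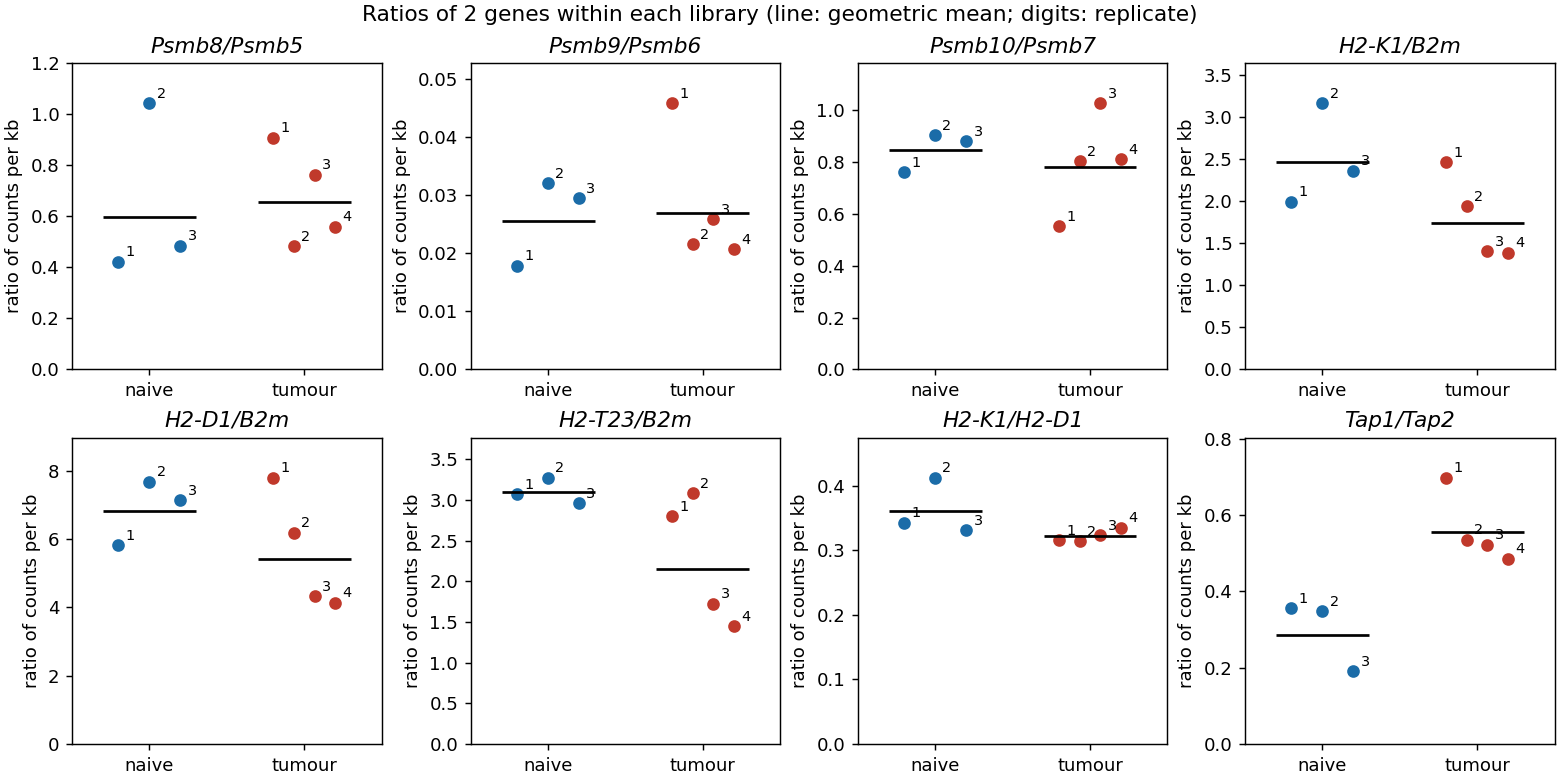
Ratios of counts per kilobase of 2 genes within each naive (blue) and tumour (red) library, with the geometric mean of each group as a line and the replicate number beside each point. The groups are apart for Tap1/Tap2, at 0.190 to 0.355 in naive skin and 0.485 to 0.698 in tumour, and overlap in the other 7 panels.

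Tapbp, which encodes tapasin, the bridge between the transporter and empty class I molecules, was at 198 CPM, 231 CPM and 207 CPM in the naive libraries and at 315 CPM, 213 CPM, 196 CPM and 236 CPM in the tumour libraries. Tumour replicate 1 stood above the other 6 libraries, and tumour replicate 3 was the lowest, close to naive replicate 1. Means were 212 ± 17.2 CPM (SD, n = 3) and 240.2 ± 52.6 CPM (SD, n = 4), a log2 difference of 0.18 (SE 0.18, 95% interval -0.22 to 0.58, edgeR adjusted p = 0.695). Without tumour replicate 1 the estimate was 0.025. Zbtb22, a neighbour on the same strand with 26133 counts in all, shares 149 exon bases (4.11%) with Tapbp.

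Psmb8 and Psmb9 encode immunoproteasome subunits, which replace the constitutive subunits Psmb5 and Psmb6 and favour peptides that fit class I grooves. Psmb8 had 24.2 CPM, 52.8 CPM and 18.9 CPM in the naive libraries and 51.5 CPM, 33.4 CPM, 45.6 CPM and 40.1 CPM in the tumour libraries. All tumour libraries were above naive replicates 1 and 3 and below naive replicate 2. With means of 31.9 ± 18.2 CPM (SD, n = 3) and 42.7 ± 7.73 CPM (SD, n = 4), the log2 change was 0.42 (SE 0.36, 95% interval -0.40 to 1.24, edgeR adjusted p = 0.651). Without naive replicate 2 it was 0.99, with an unadjusted p of 0.00907 and an adjusted p of 0.198 by edgeR; adjusted p-values over all the alternatives ran from 0.198 to 0.927.

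Psmb9 was lower, at 7.16 CPM, 11 CPM and 8.23 CPM in the naive libraries and 16.0 CPM, 8.25 CPM, 10.07 CPM and 7.45 CPM in the tumour libraries. Of the tumour libraries only replicate 1 was above the naive range. The estimate of its log2 change was 0.25 (SE 0.43, 95% interval -0.73 to 1.22, edgeR adjusted p = 0.85), and leaving out tumour replicate 1 turned it to -0.03. Per library, the ratio of Psmb9 to Psmb6 per kilobase was 0.0178 to 0.0321 in naive skin and 0.0207 to 0.0459 in tumour. That of Psmb8 to Psmb5 was 0.422 to 1.04 and 0.483 to 0.907, and that of Psmb10, the remaining immunoproteasome subunit, to Psmb7 was 0.761 to 0.905 and 0.554 to 1.03. For these ratios the exact permutation p was 0.743 to 0.857.

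**Figure D3:**
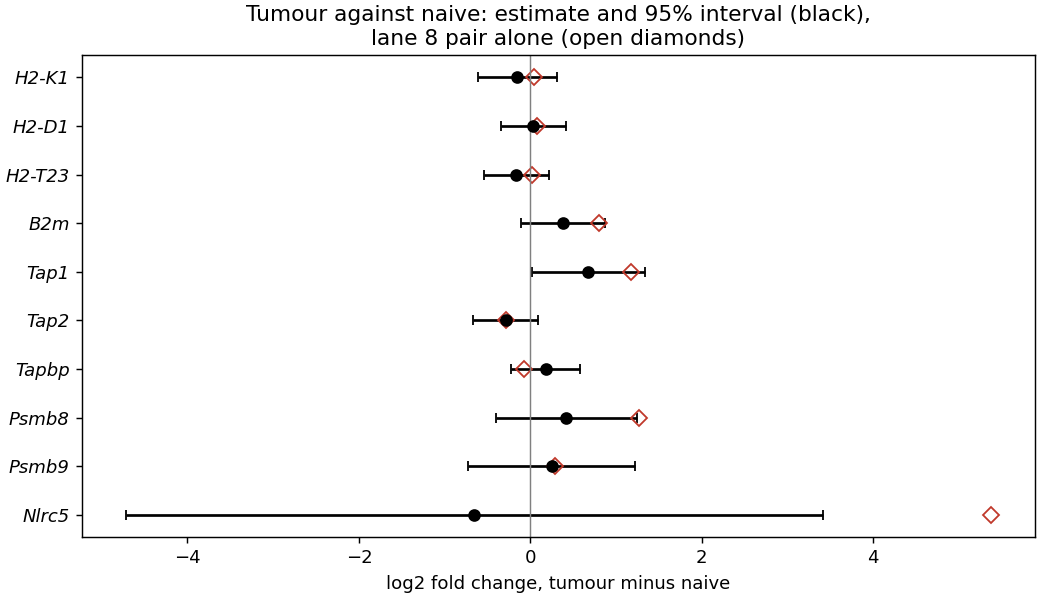
Log2 fold change of each member, tumour minus naive, from edgeR over all 7 libraries (black points) with its 95% interval (bars), and the difference of the lane 8 pair alone (open diamonds, 1 library a group, no error). The interval of Tap1 begins at 0.01, those of the other members include 0, and that of Nlrc5 runs from -4.72 to 3.41.

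Nlrc5, the class I counterpart of the class II transactivator, was the least abundant member and the most variable. Its raw counts were 12, 406 and 3 in naive replicates 1 to 3 and 199, 3, 135 and 41 in tumour replicates 1 to 4. The count of 3 was met in a library of each group, and the highest CPM was 136 times the lowest in naive skin and 67.0 times in tumour. The mean was 2.44 ± 4.0 CPM (SD, n = 3) and 1.55 ± 1.46 CPM (SD, n = 4). The fitted log2 change was -0.66 (SE 1.79, 95% interval -4.72 to 3.41, edgeR adjusted p = 0.907), and without naive replicate 2, the library labelled with both genotypes, it was 3.56 (adjusted p = 0.529). A difference was not detectable in these counts, and the interval spanned large changes in both directions.

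Across the members, 2 libraries recurred at the top. Tumour replicate 1 was the highest tumour library for 9 of the 10 members, all but B2m, and naive replicate 2 the highest naive library for 7, namely H2-K1, H2-D1, Tap1, Tapbp, Psmb8, Psmb9 and Nlrc5. Naive replicate 3 was the lowest naive library for 7 members, and tumour replicate 2 the lowest tumour library for 5. How often each library was the highest or lowest of its group over all tested genes was not counted. These counts therefore have no background to be read against. The summed level of 24 interferon-induced genes, a list that also holds Cd274 and Psmb10, was 904 CPM in tumour replicate 1 and 659 CPM in naive replicate 2. It was 636 CPM in tumour replicate 3, 510 CPM in naive replicate 1, 437 CPM in tumour replicate 4, 418 CPM in naive replicate 3 and 388 CPM in tumour replicate 2. The top libraries of that sum were those at the top for many members. The bottom libraries, tumour replicate 2 and naive replicate 3, were those at the bottom for many. The genes of the list differed, and the sum weighs the abundant ones most. In tumour replicate 1 Gbp7 was at 199 CPM, its highest of the 7 libraries, and Ifi35 at 32.5 CPM, its lowest. Ifit1 was highest in tumour replicate 3, at 52.3 CPM. The likeness of the sum and the members describes 7 libraries and was not tested.

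The genes whose profile over the 7 libraries lay closest to Nlrc5, among 7291 with a mean log2 CPM of at least 4, were Gbp3, Igtp, Gbp4, Tgtp1 and Gbp2. Each is known as a GTPase gene induced by interferon. Their root mean square difference from Nlrc5 was 1.77 to 1.87 on the centred log2 scale, which is large because Nlrc5 itself spread more widely than they did. Gbp2 was at 82.0 CPM in tumour replicate 1 and 36.6 CPM in naive replicate 2, and at 13.4 to 28.3 CPM in the other libraries. Gbp and Tgtp genes have close copies, so their counts may hold reads of each other. For H2-K1 the closest profiles were Patl1, Sertad2, Fam114a2, H2-D1 and Ccdc97, at 0.106 to 0.136. H2-D1 was the fourth of 7290 genes. Of the 50-base windows of H2-K1, 6.94% occurred in H2-D1, so these counts too may hold reads of each other. Why the profiles lie close was not tested.

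**Figure D4:**
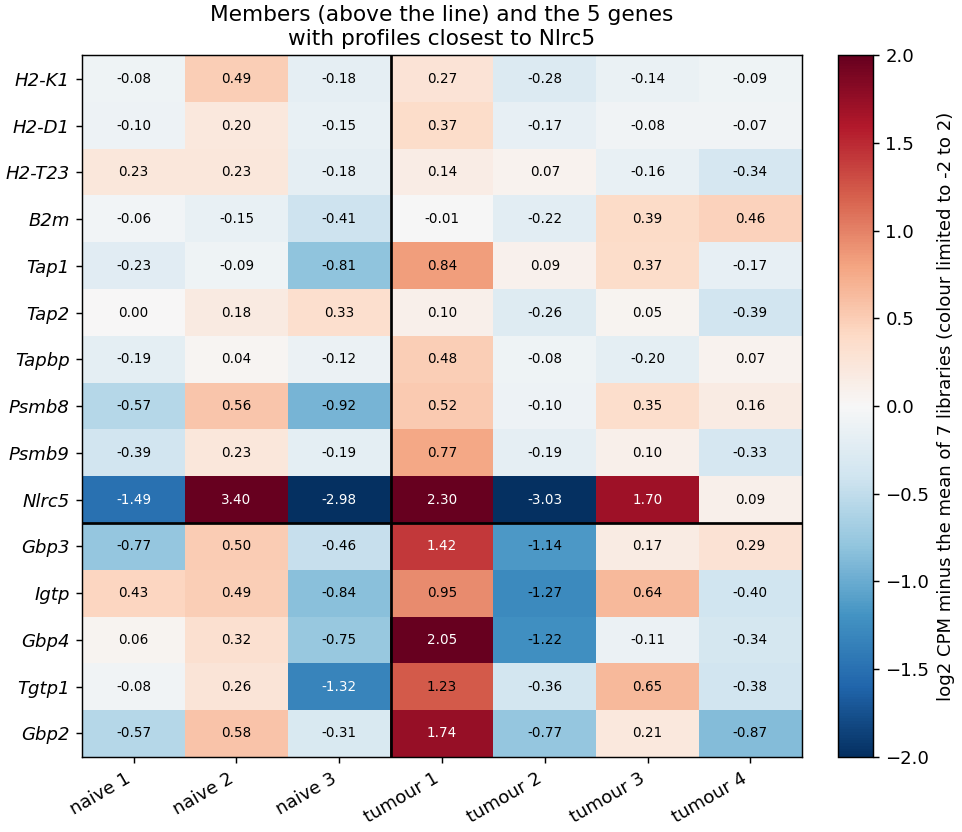
Log2 CPM of the 10 members (above the line) and of the 5 genes with profiles closest to Nlrc5, each minus its mean over the 7 libraries; red is above and blue below the mean, and the numbers are the values drawn. Tumour replicate 1 is above the mean in all rows but B2m, and Nlrc5 runs from -3.03 to 3.40.

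Levels can be compared between members per kilobase of transcript. H2-D1 was the highest, at 384 ± 53 CPM per kb in naive skin (SD, n = 3) and 393 ± 70.8 in tumour (SD, n = 4), and its lowest library was above the highest of every other member. H2-T23 and H2-K1 followed, and Tapbp and B2m came next. Tap2, Psmb8, Tap1 and Psmb9 were lower still, and Nlrc5 was the lowest, at 0.322 ± 0.528 (SD, n = 3) and 0.204 ± 0.193 CPM per kb (SD, n = 4). Neighbours in this order overlapped over the 7 libraries except H2-D1 with H2-T23, B2m with Tap2 and Psmb9 with Nlrc5. B2m, at 56.1 ± 6.84 CPM per kb in naive skin (SD, n = 3) and 73.1 ± 16.0 in tumour (SD, n = 4), was below each heavy chain in every library, with H2-D1 at 4.14 to 7.80 times its level. How reads were assigned to genes is not stated, so whether reads of B2m were lost in counting is unknown, and its level against other genes carries that doubt. Among the 3 heavy chains, H2-D1 made up 53.4% to 59.7% of the level per kb, H2-T23 20.8% to 28.2% and H2-K1 17.4% to 22.5%. The ratio of H2-K1 to B2m was 1.99 to 3.17 in naive skin and 1.39 to 2.47 in tumour, and that of H2-T23 to B2m 2.96 to 3.28 and 1.45 to 3.08; the exact permutation p was 0.229 and 0.171, and 0.457 for both when adjusted over the 8 ratios.

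Other class I heavy chain and class I-like genes did not pass either. Of 24 such genes with an entry, 5 had no count in any library and 15 were tested, with 0 higher and 0 lower by edgeR and 2 at an unadjusted p under 0.05, H2-Q10 and H2-T22. DESeq2 called 1, H2-Q10. Over all tested genes 1.7% were called by edgeR, 16.9% had an unadjusted p under 0.05 and DESeq2 called 9.28%. H2-T22, a nonclassical gene whose product is known as a ligand of some gamma delta T cells, was at 42.1 CPM, 46.5 CPM and 35.6 CPM in the naive libraries and 77.5 CPM, 59.8 CPM, 48.9 CPM and 52.0 CPM in the tumour libraries, without overlap (log2 fold change 0.52, SE 0.22, edgeR adjusted p = 0.263). The groups were also apart, in the other direction, for H2-Q4, at 1.49 to 2.47 CPM and 0.0662 to 0.878 CPM, and for H2-K2, at 17.8 to 20.3 CPM and 12.8 to 16.6 CPM (edgeR adjusted p = 0.439 and 0.475). That makes 1 of 15 tested genes without overlap higher and 2 lower, against 9.57% and 8.46% of all tested genes. Raw counts of H2-Q10 were 0, 0 and 2 in the naive libraries and 0, 250, 133 and 91 in the tumour libraries. The Fc receptor gene Fcgrt, which transports IgG and albumin, was the most abundant of the list, at 728 ± 95.3 CPM in naive (SD, n = 3) and 626 ± 77.5 CPM in tumour libraries (SD, n = 4). The median log2 fold change of the list was 0.52, but many of the 15 tested genes had low counts. With the filter of 5 CPM in 3 libraries it was 0.196, over 7 genes. On the authors' log2 values it was 0.118.

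Genes for peptide loading and trimming gave 0 called of 11 by edgeR, with 2 at an unadjusted p under 0.05. Over all tested genes these shares were 1.7% and 16.9%. The groups did not overlap for 1 of the 11, higher in tumour, against 9.57% of all tested genes. Pdia3, which encodes the disulfide isomerase ERp57 of the loading complex, was at 394 CPM, 440 CPM and 364 CPM in the naive libraries and 541 CPM, 585 CPM, 722 CPM and 742 CPM in the tumour libraries, without overlap. Means of 399 ± 38.5 CPM (SD, n = 3) and 647 ± 99.7 CPM (SD, n = 4) gave a log2 change of 0.70 (SE 0.15, 95% interval 0.35 to 1.04), and it just missed the threshold with an edgeR adjusted p of 0.063. DESeq2 gave 0.000174, limma-voom 0.0426, limma on the authors' log2 values 0.0479 and edgeR with a filter of 5 CPM in 3 libraries 0.0397. The estimate for Uggt1, a glycoprotein folding sensor gene, was -0.51 (SE 0.20, edgeR adjusted p = 0.255). The lectin chaperone genes Calr and Canx had 0.41 and 0.09 (edgeR adjusted p = 0.299 and 0.851).

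Of 20 other proteasome genes, 0 were called and 3 had an unadjusted p under 0.05 by edgeR, and DESeq2 called 0. Over all tested genes these shares were 1.7%, 16.9% and 9.28%. The log2 fold change was above 0 for 18 of the 20, against 52.5% of all tested genes, with a median of 0.24. Naive replicate 3 was the lowest naive library for every Psma and Psmb gene of the list, so the genes do not count as separate results. Without that library the median was 0.119. The CPM of 5 of the 20 lay higher in all tumour than in all naive libraries, against 9.57% of all tested genes. Psmb2, a core beta subunit gene, was at 73.2 to 99.8 CPM in naive and 104 to 127 CPM in tumour libraries, without overlap (log2 fold change 0.41, edgeR adjusted p = 0.231). For Psma7, a core alpha subunit gene, the ranges were 158 to 209.9 CPM and 207 to 255 CPM, with overlap (log2 fold change 0.36, edgeR adjusted p = 0.25). The activator genes Psme1 and Psme2, also known as interferon-induced, had log2 fold changes of 0.25 and 0.24.

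Upstream of the members, 0 of 19 tested interferon receptor and signalling genes were called by edgeR. At an unadjusted p under 0.05 there were 7, against 16.9% of all tested genes, and DESeq2 called 3 lower, Irf1, Jak2 and Stat3, against 9.28% of all genes called in either direction. Irf1, a transcription factor known to act at class I and Tap1 promoters, was at 251 CPM, 187 CPM and 186 CPM in the naive libraries and 135 CPM, 142 CPM, 112 CPM and 132 CPM in the tumour libraries, without overlap. Its log2 fold change was -0.67 (SE 0.16, 95% interval -1.03 to -0.32, edgeR adjusted p = 0.0746, DESeq2 adjusted p = 0.00336). The kinase gene Jak2 had -0.75 (SE 0.22, edgeR adjusted p = 0.135). Of the 19, the groups were apart for 2 genes higher in tumour and 3 lower, against 9.57% and 8.46% of all tested genes. The interferon gamma receptor gene Ifngr1 was at 159 to 178 CPM in naive and 135 to 174 CPM in tumour libraries (edgeR adjusted p = 0.826), and Ifngr2 at 46.0 to 57.5 CPM and 62.8 to 84.9 CPM, without overlap (edgeR adjusted p = 0.172). The ligand genes Ifng and Ifnb1 had 0 counts in all 7 libraries, which allows up to 0.0479 to 0.0521 CPM in a library (3 counts, for counting error only).

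Of 13 factors of class I promoters 0 were called by edgeR and 3 had an unadjusted p under 0.05, and DESeq2 called 1, Rela. Over all tested genes 16.9% had such an unadjusted p and DESeq2 called 9.28%, so these counts are near the background. Rela, an NF-kB subunit gene, was at 476 to 523 CPM in naive and 261 to 448 CPM in tumour libraries (log2 fold change -0.53, edgeR adjusted p = 0.172). Nfkb1, which encodes its partner, was at 57.7 to 77.6 CPM and 84.3 to 95.9 CPM (log2 fold change 0.45, edgeR adjusted p = 0.19), and for neither gene did the groups overlap. That makes 1 of the 13 without overlap higher and 1 lower, against 9.57% and 8.46% of all tested genes. The RFX genes Rfx5, Rfxap and Rfxank, which encode the complex that Nlrc5 joins, had log2 fold changes of 0.17, -0.12 and -0.38. Among 21 tested interferon-induced genes 0 were called and 1 had an unadjusted p under 0.05, Usp18, a negative regulator of type I interferon signalling, at 5.17 to 15.5 CPM in naive and 13.2 to 36.6 CPM in tumour libraries (edgeR adjusted p = 0.217). DESeq2 called 0. The antiviral gene Ifit1 had an estimate of 1.14 (SE 0.75, edgeR adjusted p = 0.518). The medians were -0.17 for the signalling list, -0.17 for the promoter factors and 0.30 for the induced genes. That of the induced genes was 0.012 without tumour replicate 1, and that of the signalling list was -0.072 without naive replicate 2. With lane as a term, which compares only the lane 8 pair, those of the signalling list and the promoter factors were 0.054 and 0.032.

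**Figure D5:**
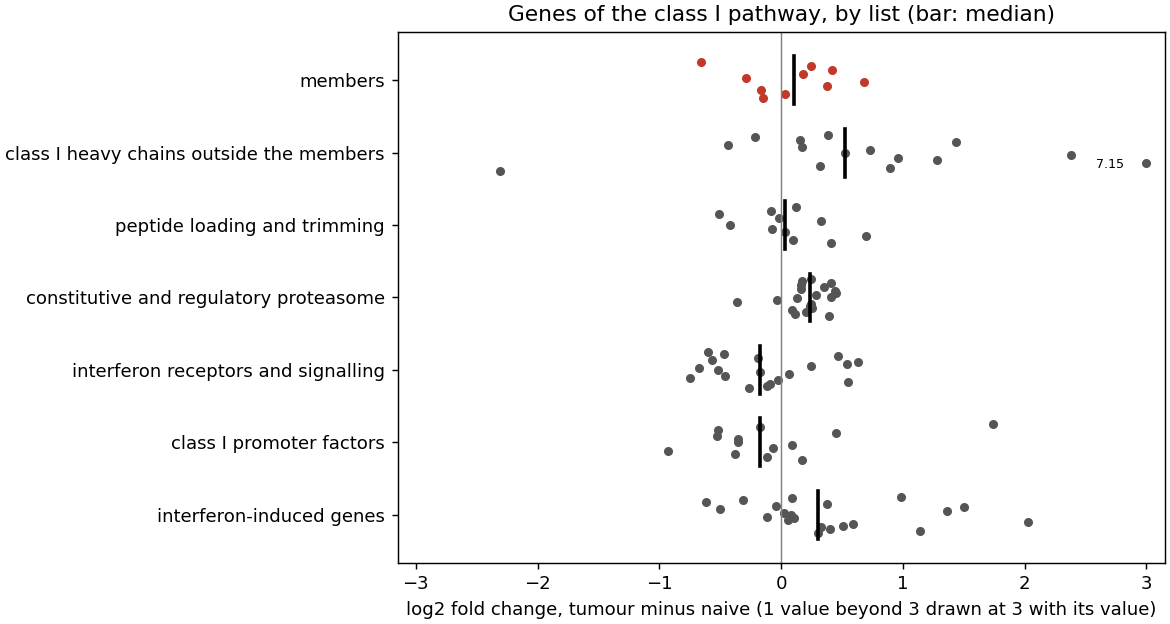
Log2 fold change (tumour minus naive) of the tested genes in the members (red) and in the 6 other lists of the class I pathway (grey), with each list's median as a bar. The value of H2-Q10, 7.15, is drawn at 3; 18 of the 20 other proteasome genes lie above 0.

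Immune cells carry class I molecules too, so their markers were read beside the members. In bulk libraries fewer cells of a type and less RNA per cell cannot be told apart. Ptprc, the pan-leukocyte gene, had 0 counts in the naive libraries, in tumour replicate 1 and in tumour replicate 3, 3 counts in tumour replicate 2 and 378 in tumour replicate 4. The 8 pan-leukocyte markers summed to 184 to 228 CPM in naive and 230 to 311 CPM in tumour libraries, but most of each sum was Arhgdib, at 181 to 219 CPM and 184 to 249 CPM. Without Arhgdib, left out after its values were seen, the sum was 2.73 to 10.4 CPM in naive skin and 46.0 CPM, 24.1 CPM, 21.9 CPM and 82.8 CPM in tumour replicates 1 to 4. Every tumour library was above every naive library in that sum, and tumour replicate 1, the highest tumour library for 9 members, was the next after tumour replicate 4. In tumour replicate 1 the markers differed. Ptprc was at 0, and Cd53 was at 5.20 CPM, the highest of the 7 libraries. Coro1a was at 1.85 CPM, below the 3.14 CPM of naive replicate 2, and Laptm5 at 8.44 CPM, below tumour replicates 2 and 4. Lcp1 was at 29.7 CPM there and 34.6 CPM in tumour replicate 4, against 0.0172 to 3.87 CPM in naive skin. Most of the sum without Arhgdib was Lcp1 in tumour replicate 1 and, at 17.7 CPM, in tumour replicate 3. The T cell gene Cd3e had 96 counts in tumour replicate 4 and 0 elsewhere, and Cd8a had 0 counts in all 7 libraries. The 12 myeloid markers summed to 145 to 220 CPM in naive skin and 272 to 733 CPM in tumour, with 3 of 11 tested called higher and 0 lower, and 9 fibroblast markers summed to 608 to 1190 CPM and 1737 to 18265 CPM, with 2 called higher and 0 lower. Melanocyte markers summed to 1.19 to 4.29 CPM and 10.7 to 119 CPM, with 2 of 5 tested called higher and 0 lower. By edgeR 0.899% of all tested genes were called higher and 0.803% lower. The myeloid, fibroblast and melanocyte sums were highest in tumour replicate 4, which was the lowest tumour library for 4 members and the highest for B2m. In tumour replicate 1, 1 of 8 pan-leukocyte, 0 of 12 myeloid and 9 of 10 T and NK cell markers were at 0 counts. The T and NK cell markers summed to 0.0172 to 0.519 CPM in naive and 0 to 2.54 CPM in tumour libraries, B cell markers to 1.38 to 2.90 CPM and 0 to 2.36 CPM, keratinocyte markers to 2.40 to 40.4 CPM and 29.4 to 103 CPM, and blood endothelial markers to 918 to 1203 CPM and 1467 to 1662 CPM. Of these and the pan-leukocyte list, edgeR called 1 blood endothelial gene, and of the 14 lymphatic markers 1, both higher. The blood endothelial markers differed. Of the 8, 6 had estimates above 0, while Emcn and Nos3 had log2 fold changes of -1.01 and -0.52. The part of other cell types in the values of the members was not tested.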

How the data were processed

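RNA was sequenced from 3 naive and 4 tumour libraries of lymphatic endothelial cells. RNeasy Micro columns (Qiagen) and the SMART-Seq v4 kit (Takara), whose libraries do not mark the strand, were used per the labels' protocols. The submitters' processing notes name Trimmomatic 0.38 and mm10; the sources used here give no aligner, counting tool or annotation. The authors deposited raw counts per gene (whole numbers, 52940832 to 63032175 per library) and normalized values on a log2 scale by an unstated method, which entered 1 alternative only.

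Of 26608 entries, 25 whose symbols had become dates (0.174% to 0.236% of counts) were left out. Counts were fitted in R 4.3.3 with edgeR 4.0.16 (filterByExpr, TMM, robust estimateDisp and glmQLFit, glmQLFTest; Benjamini-Hochberg over 13453 genes, threshold 0.05). An interval is the estimate with its SE (size over the root of F) times the t quantile. CPM use TMM library sizes. The fit was run on simulated counts whose changes were larger than the estimate of any member. How often changes of the members' size would be found was not tested. Alternatives used DESeq2 1.42.0, limma 3.58.1, other scalings and filters, and the counts without Ccdc115. Others added lane, sex or the replicate number as a block, or left out each library in turn. Kilobases are of the longest coding transcript in GENCODE M21 (GRCm38, the assembly of mm10).

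The members, 6 pathway lists and 9 marker lists were chosen with earlier results of these data known. Named were all members, from each pathway list the genes that passed or, with none, the 2 with the smallest p, further list members as examples, the closest profiles to H2-K1 and Nlrc5, and markers. Those examples were chosen after their values were seen, and the NF-kB and interferon motifs were shortened to cores after a first search with longer forms. Same-numbered libraries deviated together with r of -0.04 to -0.01, so no pairing by number was seen. So few libraries cannot exclude it: the replicates numbered 3 share lane 8 and had an r of -0.02. Counting limits cover counting error only.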

Additional observations from a re-analysis of the deposited data

Results flagged for a closer look

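In the tumour group H2-D1 was at 1047 CPM in tumour replicate 1 and at 720 to 770 CPM in the other 3 libraries. The gap between that library and the next was 0.849 of the range of the group, more than Dixon's test allows at its 95% level for 4 samples. Of the 10 members and 8 ratios looked at in this way it was the only one, and chance alone marks about 1 group in 20.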

How the results depend on the processing

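Under the 18 alternatives 0 of the 10 members were called, and B2m, Tap1, Tap2 and Psmb8 kept their direction in all of them (Nlrc5 was filtered out in 1, the filter of 5 CPM in 3 libraries). Lanes 6 and 7 hold 1 group each, so lane as a term compares only tumour replicate 3 with naive replicate 3. On that pair the estimate turned to 0.044 for H2-K1, 0.020 for H2-T23, -0.073 for Tapbp and 5.32 for Nlrc5. Limma-voom gave -0.016 for H2-D1 and 0.19 for Nlrc5, and sex as a term gave -0.0098 for H2-D1. Naive replicate 1 was the only pooled library, so sex as a term leaves it out of the comparison. With the replicate block Nlrc5 was at 2.91. The block rests on replicate numbers for which no pairing was seen, and it left 3 of all genes called. No naive library is numbered 4, so the block leaves tumour replicate 4 out of the comparison. Leaving out 1 library at a time gave -0.27 to 0.088 for H2-K1, -0.10 to 0.15 for H2-D1, -0.28 to -0.072 for H2-T23, 0.025 to 0.27 for Tapbp, 0.15 to 0.99 for Psmb8, -0.033 to 0.44 for Psmb9 and -1.34 to 3.56 for Nlrc5. The log2 ratio ran from -0.11 to 0.54 for Psmb8/Psmb5, -0.19 to 0.24 for Psmb9/Psmb6 and -0.25 to 0.048 for Psmb10/Psmb7. The cause of these turns was not tested.

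Over all genes 229 were called, 1249 with DESeq2, 356 with limma on the authors' log2 values and 359 with the filter of 5 CPM in 3 libraries. The count was 12 with sex as a term, which leaves naive replicate 1, the only pooled library, out of the comparison. It was 7 to 171 without 1 library, and the 7 came without naive replicate 1. Lane as a term leaves 1 library a group to compare, so no count is given for it. With upper-quartile scaling 156 were higher and 92 lower, and with limma-voom 99 and 170, beside 121 and 108. In the lists DESeq2 called 1 heavy chain, 1 loading, 3 signalling and 1 promoter factor gene, and the loading gene Pdia3 was also the 1 called by limma-voom, by limma on the log2 values and with the filter of 5 CPM. With 3 and 4 libraries the intervals of the members limit what could be seen.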

Other observations

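Ciita, the class II transactivator and relative of Nlrc5, also varied widely within groups. Its raw counts were 79, 20 and 0 in naive replicates 1 to 3 and 314, 5, 1 and 140 in tumour replicates 1 to 4 (edgeR adjusted p = 0.78). Tumour replicate 1 was high for both transactivators, while naive replicate 2, the highest library for Nlrc5, had 20 counts of Ciita. Cd74, the class II invariant chain gene, was at 229 CPM in tumour replicate 1 and 222 CPM in tumour replicate 4, and at 11.5 to 107 CPM in the other libraries (edgeR adjusted p = 0.408).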
